A study of Homo sapiens with 4 samples.

Results

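The genes described here are complement C3 and 7 other genes of the complement system, 8 genes in all out of 20372 in the count table. They were taken by gene symbol, and the symbol CFB matched 2 identifiers, so the 8 genes held 9 rows of the table. The 8 genes were chosen by their counts in these same libraries, that is with their 24 h and 6 h values known, C3 being among the lowest fold changes of the table. Their differences between the times are therefore given as a description, without a test of them. Calls that the fits over all genes made on them are named but support nothing.

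RNA was sequenced from TPC1 cells treated with BGJ398 for 24 h (2 libraries) or for 6 h (2 libraries), a single cell line at a single dose. TPC1 is an established line from a human papillary thyroid carcinoma and carries the CCDC6-RET fusion. BGJ398 is a small molecule inhibitor of the FGF receptor kinases. The dose is 100 micromolar in the labels but is stated in nanomolar in the methods, and it was the same for both times. Cells without the inhibitor were not analysed here, and each difference below is between a late and an early time on the inhibitor.

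Complement is a cascade of plasma proteases and binding proteins that tags and lyses targets. It starts from the C1 complex (classical pathway), from lectins, or from slow activation of C3 itself (alternative pathway), and all routes meet at the cleavage of C3, whose fragment C3b binds covalently to nearby surfaces. The liver supplies most of the plasma proteins, but epithelial and other tissue cells also make some of them, and nucleated cells carry membrane inhibitors that stop the cascade on their own surface.

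Library totals ran from 24958447 to 26325512 counts. PAX8, a transcription factor of the thyroid lineage, was at 985 ± 39.0 CPM after 24 h and 1067 ± 1.95 CPM after 6 h (SD, n = 2), while TSHR and NKX2-1, other markers of thyroid cells, had 0 counts in all 4 libraries. The 7 thyroid markers summed to between 985 and 1038 CPM after 24 h and between 1097 and 1099 CPM after 6 h. CPM are counts per 1000000 counts of the library, with totals scaled by TMM factors, which correct for differences in RNA composition. Such bulk levels do not tell fewer cells of a type from less RNA per cell. Markers of hepatocytes (ALB, APOA1, TTR, TF and FGB) summed to between 0.238 and 0.281 CPM after 24 h and between 0.0408 and 0.297 CPM after 6 h, and none of the 5 passed the filter on low counts. Of 6 macrophage markers CD163 and C1QA had 0 counts in all libraries. The list summed to between 170 and 206 CPM after 24 h and between 214 and 240 CPM after 6 h, nearly all of it from CD68, a lysosomal gene. Of 6 fibroblast markers COL1A2, COL3A1 and DCN had 0 counts, and the list summed to between 12.6 and 13.2 CPM after 24 h and between 13.6 and 15.9 CPM after 6 h.

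TPC1 cells expressed C3 and the membrane inhibitors CD46, CD55 and CD59, but almost none of the other components. Per kilobase of the canonical transcript, CD46 was at 158 CPM per kb after 24 h and 133 CPM per kb after 6 h, the highest of the 8 genes. CD59 followed at 60.0 CPM per kb after 24 h and 47.5 CPM per kb after 6 h. C3 was at 28.1 CPM per kb after 24 h and 48.9 CPM per kb after 6 h and CD55 was lowest of the 4, at 18.8 CPM per kb over all libraries. On this scale C3 thus lay below CD59 at 24 h and beside it at 6 h. In CPM not divided by length, C3 was below CD59 at both times, at 0.324 times its level at 24 h and 0.713 times at 6 h. By the mean of the 4 libraries per kilobase, CD46 ranked 452, CD59 1470, C3 2063 and CD55 3832 among the 19460 genes with a transcript length. C1R, C1S, CFB and CFI, the remaining members, were at most at 0.241 CPM per kb at either time.

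**Figure D1:**
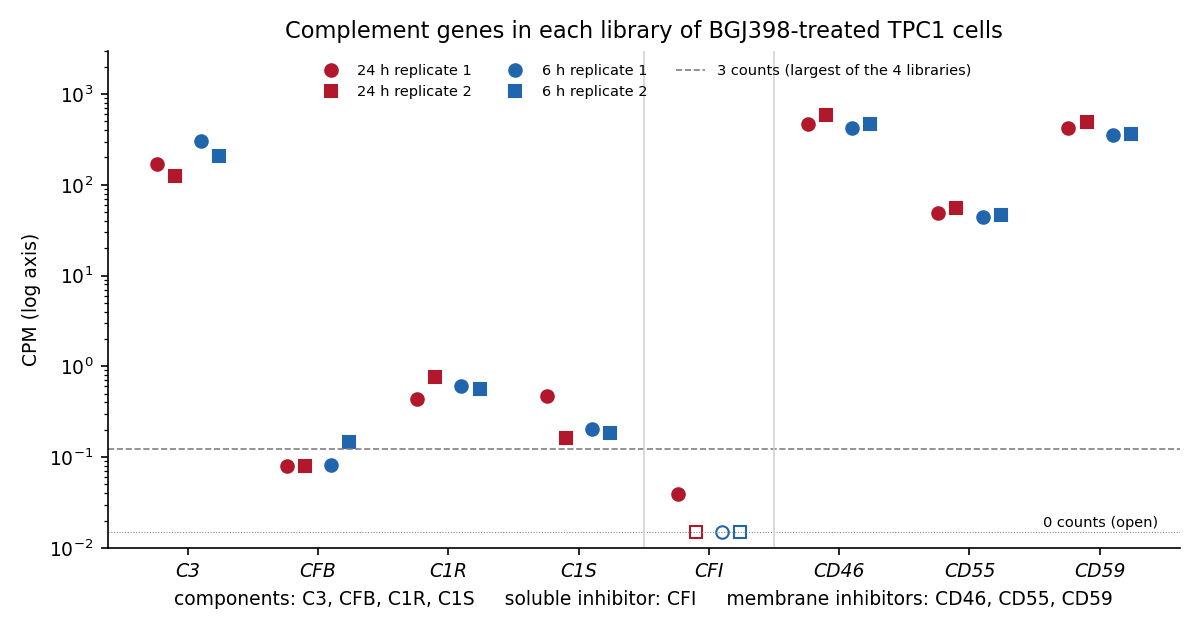
CPM (log axis) of the 8 complement genes in each of the 4 libraries, with 24 h libraries in red and 6 h libraries in blue. C3, CD46, CD55 and CD59 lie between 44.1 and 584 CPM, whereas CFB, C1R, C1S and CFI lie below 1 CPM; open symbols stand for 0 counts and the dashed line for 3 counts.

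C3 was lower at 24 h than at 6 h. C3 is the protein on which the pathways converge, and its gene (ENSG00000125730) lies on hg19 chromosome 19 from 6677715 to 6730573. It had 4241 and 3123 counts in the 24 h libraries and 7477 and 5579 counts in the 6 h libraries, or 168 and 125 CPM after 24 h against 305 and 207 CPM after 6 h. Both 24 h libraries lay below both 6 h libraries. The mean was 147 ± 30.2 CPM after 24 h and 256 ± 69.2 CPM after 6 h (SD, n = 2), a log2 fold change (24 h over 6 h, edgeR estimate) of -0.80 ± 0.20 (SE), or a ratio of 0.574. Of 12549 genes tested, 58 had a lower fold change. The depth was not what limited this value, since counting error gave each library an interval of at most ± 3.51% (95%). The spread between libraries was far wider. Within each time the library numbered 2 was below the library numbered 1, by a log2 difference of -0.42 at 24 h and -0.56 at 6 h. The closest pair across times, 24 h replicate 1 and 6 h replicate 2, differed by -0.30. Without 6 h replicate 1 the log2 fold change was -0.50, the smallest in size of any setting, and without 6 h replicate 2 it was -1.06. The high-coordinate end of the C3 span overlaps GPR108 by 649 bases, and GPR108 had between 1348 and 1533 counts in every library. How reads in that stretch were assigned is not known.

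The other components were close to the limit of detection. C1R and C1S encode the serine proteases of the C1 complex and are neighbours on chromosome 12. C1R (ENSG00000159403, 7187513 to 7245203) had 11 and 19 counts after 24 h and 15 and 15 counts after 6 h. C1S (ENSG00000182326, 7096351 to 7178336) had 12 and 4 counts after 24 h and 5 and 5 counts after 6 h. The times overlapped in C1R, and in C1S 1 of the 24 h libraries lay above and 1 below the 6 h libraries. C1R passed the filter with a log2 fold change of 0.038 ± 0.42 (SE), a value whose error exceeds its size. Without 24 h replicate 2 it was -0.42. Even these counts are uncertain, because the span of C1R overlaps that of C1RL by 3021 bases and the span of C1S overlaps those of EMG1 and LPCAT3, which had between 827 and 1298 counts in every library. CFB encodes factor B, the protease of the alternative pathway convertase. Its main identifier (ENSG00000243649, chromosome 6, 31895475 to 31919861) had 2 and 2 counts after 24 h and 2 and 4 counts after 6 h. The second identifier of that symbol (ENSG00000244255) had 0 counts in all libraries. Both CFB spans overlap C2, which had 2 to 5 counts. At or near 3 counts per library, or 0.111 to 0.122 CPM, no fold is given for CFB.

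CFI encodes factor I, the soluble protease that cleaves C3b and C4b once a cofactor holds them. It (ENSG00000205403, chromosome 4, 110661852 to 110723335) had 1 and 0 counts after 24 h and 0 and 0 counts after 6 h. A count of 0 allows a level of up to 3 counts, or 0.120 CPM in 24 h replicate 2 and 0.122 and 0.111 CPM in the 6 h libraries, by counting error only. The cofactor CD46 was thus at 418 to 584 CPM in libraries where the protease it serves was not detectable at this depth or had 1 count.

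The 3 membrane inhibitors were each somewhat higher at 24 h. CD46, the membrane cofactor of factor I (ENSG00000117335, chromosome 1, 207925402 to 207968858), was at 469 and 584 CPM after 24 h against 418 and 468 CPM after 6 h. The lower 24 h library and the higher 6 h library differed by only 0.0013 on the log2 scale, so the 2 times met without a gap. On unscaled counts they overlapped, with 11825 and 14530 counts after 24 h and 10249 and 12619 counts after 6 h. The log2 fold change of CD46 was 0.25 ± 0.14 (SE), and 0.081 without 24 h replicate 2.

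CD59 blocks the assembly of the membrane attack complex. Its gene (ENSG00000085063, chromosome 11, 33719807 to 33757991) was at 420 and 487 CPM after 24 h against 357 and 360 CPM after 6 h. The 6 h libraries lay close together and both 24 h libraries lay above them, by a log2 difference of at least 0.22. Its log2 fold change was 0.34 ± 0.12 (SE), or 1.26-fold, and 0.23 without 24 h replicate 2. CD55 speeds the decay of the C3 and C5 convertases, and its gene (ENSG00000196352, chromosome 1, 207494853 to 207534311) was at 48.9 and 54.9 CPM after 24 h against 44.1 and 47.1 CPM after 6 h. The libraries did not overlap, but 24 h replicate 1 exceeded 6 h replicate 2 by 0.055 on the log2 scale. The log2 fold change of CD55 was 0.19 ± 0.11 (SE), and 0.10 without 24 h replicate 2. CD55 was the least abundant of the inhibitors, with CD46 7.91 times as high per kilobase at 24 h and 7.59 times at 6 h. CD46 and CD55 lie in the same region of chromosome 1, apart from CD59.

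Libraries of the 2 times did not overlap in C3, which was lower at 24 h, nor in CD46, CD55 and CD59, which were higher. Among all 12549 genes tested, 31.5% had both 24 h libraries below both 6 h libraries and 31.3% had both above, so the absence of overlap is common in this table and nothing is read from it. The edgeR quasi-likelihood test called 0% of the 12549 genes at an adjusted p under 0.05 in either direction, although 3061 (24.4%) had an unadjusted p under 0.05, 13.9% higher and 10.5% lower. DESeq2 called 8.23% of 7410 genes, 2.65% lower and 5.59% higher. Of the 4 members to which it gave an adjusted p, C3 was among the lower calls and the 3 inhibitors were not called. A fit blocked on replicate number called 2 members higher and 1 lower, where 18.8% and 17.5% of all genes were. These calls rest on the contrast that was known when the genes were picked, and they support nothing further.

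Within a library, components were lower relative to membrane inhibitors at 24 h than at 6 h. C1R, C1S and CFB added so little that C3 made up between 99.2% and 99.7% of the summed CPM of the 4 components. The components summed to 169 and 126 CPM after 24 h against 306 and 208 CPM after 6 h. The membrane inhibitors summed to 937 and 1126 CPM after 24 h against 819 and 876 CPM after 6 h. In log2 units the ratio of components to inhibitors was -2.47 and -3.15 at 24 h and -1.42 and -2.07 at 6 h. Its mean was -2.81 ± 0.48 at 24 h and -1.75 ± 0.46 at 6 h (SD, n = 2), a difference of -1.06. The membrane inhibitors held 5.58 and 8.97 times the CPM of C3 at 24 h, and 2.69 and 4.23 times at 6 h. With C3 left out of the components the difference was -0.12. That value rests on C1R, C1S and CFB, which were close to the limit of detection. It therefore cannot divide the difference between C3 and the inhibitors. In log2 CPM the 24 h minus 6 h difference was -0.79 for C3, against 0.24 for CD46, 0.19 for CD55 and 0.33 for CD59. The larger part thus lay in C3 and a smaller part in the inhibitors. The makeup of the inhibitors hardly varied, CD46 holding between 50.0% and 53.5% of their CPM in every library and CD55 between 4.87% and 5.38%. Because this ratio is formed within a library, it does not depend on the scaling between libraries. A trend on transcript length or GC content, described below, does not cancel in it. The ratio was not recomputed with that trend removed.

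**Figure D2:**
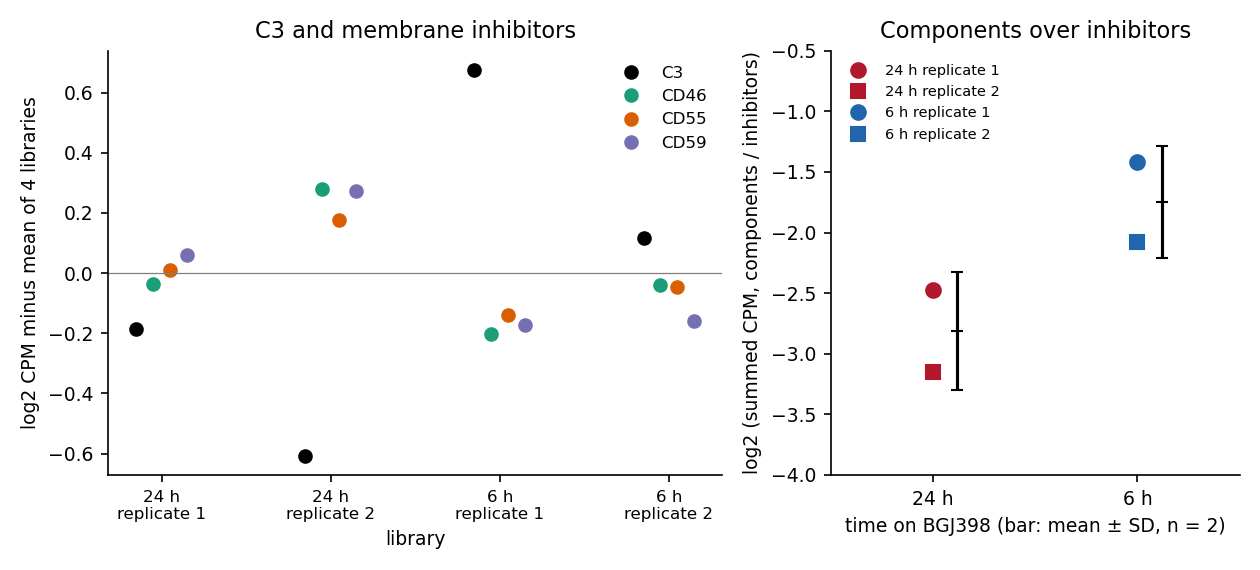
Left, log2 CPM of C3, CD46, CD55 and CD59 in each library after subtraction of the mean of the gene over the 4 libraries; right, log2 ratio of the summed CPM of components to that of membrane inhibitors, with bars for the mean ± SD of 2 libraries per time. C3 is highest in 6 h replicate 1 and lowest in 24 h replicate 2, where CD46, CD55 and CD59 are at their highest, and the ratio lies at -2.47 and -3.15 at 24 h against -1.42 and -2.07 at 6 h.

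The differences between replicate numbers ran the same way as those between times, as they did over the table as a whole (r = 0.67 across 12549 genes, which are not independent and share the same 4 libraries). Subtracting the libraries numbered 1 from those numbered 2 gave -0.49 for C3, 0.24 for CD46, 0.13 for CD55 and 0.11 for CD59 on the log2 scale, where the 24 h minus 6 h differences of the same log2 CPM were -0.79, 0.24, 0.19 and 0.33. For CD46 the 2 differences were thus of equal size. The share of counts from mitochondrial-encoded genes also moved with these values. It was 1.68% and 2.98% at 24 h and 1.09% and 1.40% at 6 h, and the order of the libraries by this share was the reverse of their order by C3. The genes also differ in transcript makeup. The canonical transcript of C3 is 56.5% GC, against 38.2% for CD46, 39.2% for CD55 and 45.2% for CD59 and a median of 48.1% over the genes tested. With the trend of fold changes on transcript length and GC content removed, a step chosen after the data were seen, the log2 fold change was -0.60 for C3, 0.43 for CD59, 0.039 for CD46 and -0.055 for CD55. With that trend taken out CD46 was thus close to 0 and CD55 just below it, whereas C3 and CD59 kept their direction. The part of RNA quality in these differences was not tested.

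**Figure D3:**
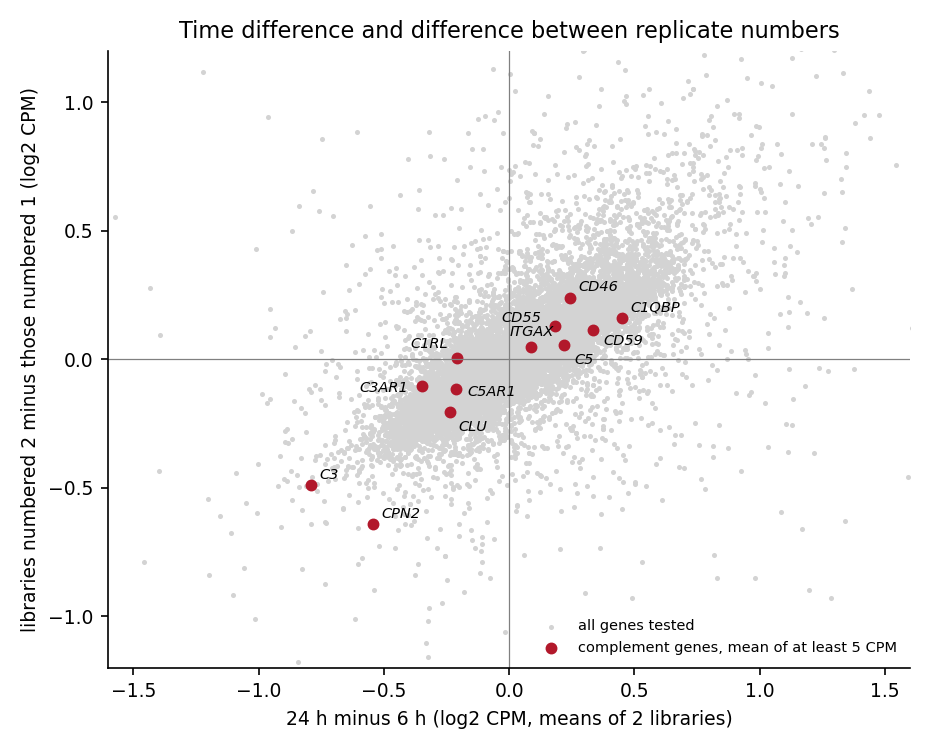
Each point is a gene, placed by its 24 h minus 6 h difference (x axis) and its difference between the libraries numbered 2 and those numbered 1 (y axis), both in log2 CPM, with 12 complement genes of at least 5 CPM in red; 68 genes fall outside the axes. C3 lies at -0.79 and -0.49 in the lower left, and CD46, CD55 and CD59 lie in the upper right.

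RefSeq promoter sequences are shown for the 3 inhibitors, which were expressed, and for CFB, which was not, because they set a transcribed beside a nearly silent member. Promoters of 6 of the 8 genes were matched in the table used here, and those of C3 and C1S were not analysed here. Each run below gives the 250 bases before the outermost RefSeq start (GRCh38.p14, a later build than the hg19 of the counts), 5′ to 3′ on the strand of the gene. Capitals mark GC boxes (GGGCGG on either strand), TATA boxes (TATAAA on either strand) and the interferon-stimulated response element (ISRE) on either strand, and no 2 of them overlap.
CD46 (chr1:207751788-207752037, plus strand): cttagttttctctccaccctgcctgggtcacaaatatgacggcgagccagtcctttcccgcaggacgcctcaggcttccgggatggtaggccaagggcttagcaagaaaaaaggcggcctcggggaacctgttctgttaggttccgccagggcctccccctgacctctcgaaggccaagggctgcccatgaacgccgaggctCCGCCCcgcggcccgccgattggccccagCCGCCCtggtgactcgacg
CD55 (chr1:207321428-207321677, plus strand): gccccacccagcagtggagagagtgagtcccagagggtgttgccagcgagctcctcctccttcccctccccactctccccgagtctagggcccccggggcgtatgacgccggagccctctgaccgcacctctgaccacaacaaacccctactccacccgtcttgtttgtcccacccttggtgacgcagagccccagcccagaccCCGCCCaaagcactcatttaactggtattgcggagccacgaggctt
CD59 (chr11:33736480-33736729, minus strand): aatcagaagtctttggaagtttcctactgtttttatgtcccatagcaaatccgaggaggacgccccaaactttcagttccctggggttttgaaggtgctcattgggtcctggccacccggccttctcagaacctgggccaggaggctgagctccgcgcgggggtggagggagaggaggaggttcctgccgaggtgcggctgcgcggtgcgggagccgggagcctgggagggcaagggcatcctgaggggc
CFB (chr6:31945845-31946094, plus strand): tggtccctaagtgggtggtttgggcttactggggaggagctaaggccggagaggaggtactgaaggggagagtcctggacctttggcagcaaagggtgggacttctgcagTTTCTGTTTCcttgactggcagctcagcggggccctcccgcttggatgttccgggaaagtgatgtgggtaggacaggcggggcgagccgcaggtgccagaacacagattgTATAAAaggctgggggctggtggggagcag

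These windows differ in their letters. The CD46 window holds 2 GC boxes, with first bases at -48 and -19 from the start, and the CD55 window holds 1 at -46, a motif found in 42.6% of the 35116 RefSeq windows of this length. Neither holds a TATA box, nor does the CD59 window, which holds none of the motifs at its outermost start. CD59 has 4 RefSeq starts and CD46 has 2, so these windows show 1 promoter of each. The CFB window has a TATA box at -30 and a response element at -140, found in 10.7% and 3.02% of windows. CG dinucleotides number 19 in the CD46 window, 12 in those of CD55 and CD59 and 7 in that of CFB, against a median of 11. The windows of C1R and CFI, 2 further members with few or no counts, held 6 and 1 CG dinucleotides and none of these motifs. The NF-kB motif was not found in any of the 6 windows, and 5.21% of all windows hold one.

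Most other complement genes had few or no counts, apart from some regulators and receptors. The list of complement genes held 57 genes including the 8 members, of which 20 passed the filter and 13 reached a mean of 5 CPM, and 19 of the 49 other genes had 0 counts in all libraries. Of 18 genes of the classical and lectin pathways, which sense targets and cleave C4 and C2, 3 passed the filter, and only C1RL, a C1R-like protease, reached 5 CPM, with 31.2 and 32.8 CPM after 24 h against 37.8 and 36.1 CPM after 6 h. C1QA, C1QB and C1QC had 0 counts in all libraries, and C4A had 6 and 8 counts after 24 h and 0 and 4 counts after 6 h, although reads of C4A and its near-identical copy C4B may be split or lost. Of 7 genes of the terminal pathway, which forms the lytic pore, only C5 passed the filter, at 5.76 ± 0.143 CPM after 24 h and 4.96 ± 0.384 CPM after 6 h (SD, n = 2).

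Among soluble regulators CLU was abundant. CLU, the gene of clusterin, which binds terminal complexes and also acts as a chaperone, was at 1282 ± 175 CPM after 24 h and 1504 ± 96.9 CPM after 6 h (SD, n = 2). Per kilobase it was 16.6 times as high as C3 at 24 h and 11.2 times at 6 h. CPN2, a subunit of the carboxypeptidase that trims C3a and C5a, was at 6.60 ± 1.72 CPM after 24 h and 9.77 ± 3.48 CPM after 6 h.

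Receptors were present at lower levels. C3AR1, the receptor of the fragment C3a, was at 12.9 ± 0.414 CPM after 24 h and 16.5 ± 1.15 CPM after 6 h (SD, n = 2), or a log2 fold change of -0.35 ± 0.13 (SE) that edgeR did not call (adjusted p = 0.176). C5AR1, the receptor of C5a, was at 6.48 ± 0.475 CPM after 24 h and 7.49 ± 0.307 CPM after 6 h. ITGAX, an integrin subunit of complement receptor 4, was at 26.6 and 29.8 CPM after 24 h against 27.1 and 25.9 CPM after 6 h, but its partner subunit ITGB2 was at 2.93 CPM over the 4 libraries. C1QBP, a mitochondrial protein that can bind C1q, was the highest of this class and was at 150 and 182 CPM after 24 h against 119 and 122 CPM after 6 h. The log2 fold change of C1QBP was 0.46 ± 0.12 (SE), which DESeq2 called (adjusted p = 0.0272) and edgeR did not (adjusted p = 0.173).

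Of the 49 complement genes besides the members, 15 were tested, and edgeR called 0 of them, with 1 higher and 2 lower at an unadjusted p under 0.05, where 13.9% of all genes were higher and 10.5% lower. A fit blocked on replicate number called 2 higher and 4 lower, where 18.8% and 17.5% of all genes were. DESeq2 gave 5 of them an adjusted p and called 1 higher, C1QBP, and 0 lower, where 5.59% and 2.65% of all genes were called. The median log2 fold change of the 15 was 0.0019, with 8 above 0 and 7 below, against 0.00019 over all genes tested. The median of these genes thus lay near that of all genes.

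**Figure D4:**
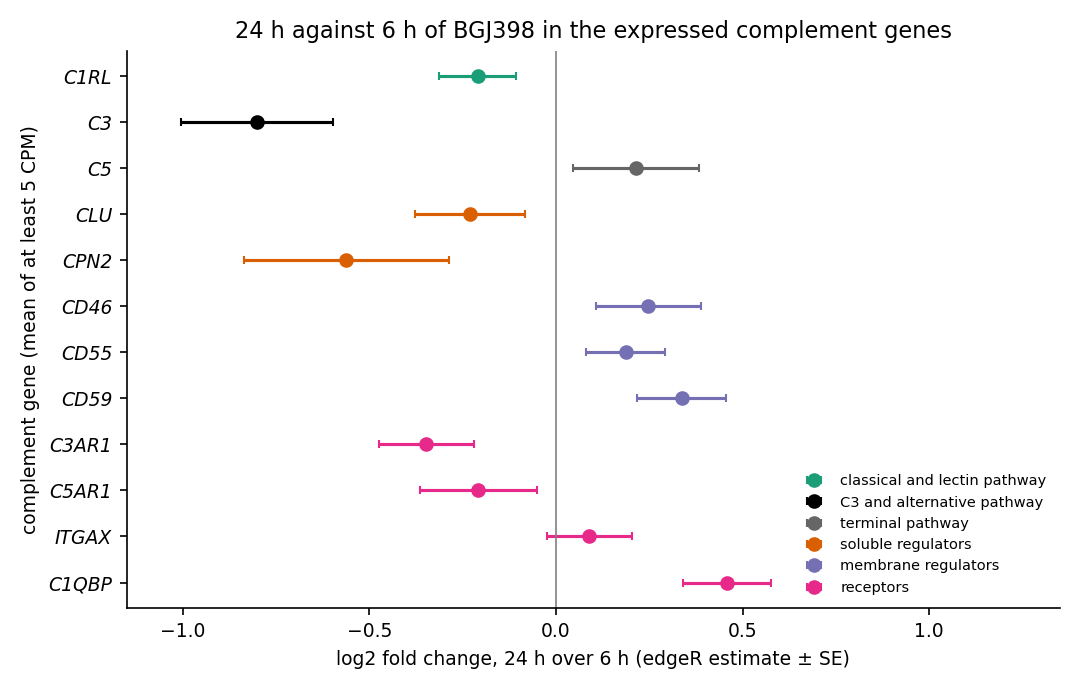
Log2 fold change of 24 h over 6 h (edgeR estimate, bars ± SE) for 12 of the 13 complement genes with a mean of at least 5 CPM, coloured by role. C3 has the lowest value at -0.80, followed by CPN2 at -0.56, and C1QBP the highest at 0.46.

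Genes of the acute phase, a response to cytokine signals, are set beside C3 here. Whether they and C3 share such signals in these cells was not tested. The list was chosen with earlier results of these data known, so its counts are a description and support nothing further. Of 17 such genes, 6 passed the filter, and all 6 had a log2 fold change below 0 (median -0.49), where 6274 of the 12549 genes tested were below 0 (median 0.00019). SAA2, LCN2 and CP averaged below 5 CPM, at -0.59 ± 0.30, -0.54 ± 0.39 and -0.081 ± 0.46 (SE). SAA1 was at -0.12 ± 0.22, and in CP and SAA1 the error exceeded the size of the value. None of the 6 was called by edgeR or by DESeq2, which gave 2 of them an adjusted p and called 2.65% of all genes lower. At an unadjusted p under 0.05, 2 were lower, where 10.5% of all genes were. A fit blocked on replicate number, a pairing that no label states, called 2 lower, PTX3 and SERPINA1, where 17.5% of all genes were called lower. Without the block the adjusted p was 0.173 for PTX3 and 0.194 for SERPINA1 by edgeR. By DESeq2 it was 0.136 for PTX3 and 0.0727 for SERPINA1. PTX3, a pentraxin that binds C1q, was at 295 and 260 CPM after 24 h against 643 and 367 CPM after 6 h, with a log2 fold change of -0.87 ± 0.24 (SE). SERPINA1, the gene of alpha-1 antitrypsin, was at 302 and 259 CPM after 24 h against 449 and 310 CPM after 6 h, or -0.43 ± 0.18. In both genes 6 h replicate 1 was the highest library, as in C3. SAA1 was at 6.83 ± 1.31 CPM after 24 h and 7.44 ± 1.76 CPM after 6 h (SD, n = 2), and its times overlapped.

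Transcription factors of the NF-kB, C/EBP, STAT and IRF families carry such cytokine signals to the nucleus. Of the 15 on the list, all were tested, 14 had a value below 0, and the median was -0.33, beside the same 6274 of 12549 genes below 0. The edgeR test called 0, with 8 lower and 0 higher at an unadjusted p under 0.05, where 10.5% of all genes were lower and 13.9% higher. DESeq2 called 2 lower of the 11 to which it gave an adjusted p, where 2.65% of all genes were called lower. A fit blocked on replicate number called 9 of the 15 lower, where 17.5% of all genes were. This list too was chosen with earlier results of these data known, so these counts are a description and support nothing further. The 2 calls by DESeq2 were NFKB1, at 77.4 ± 10.4 CPM after 24 h and 117 ± 19.8 CPM after 6 h (SD, n = 2), and NFKB2, at 137 ± 6.92 CPM after 24 h and 194 ± 27.3 CPM after 6 h. Their log2 fold changes were -0.60 ± 0.15 and -0.50 ± 0.12 (SE), with adjusted p of 0.0156 and 0.0196 by DESeq2 and 0.173 for both by edgeR. RELA, RELB, CEBPB, CEBPD, STAT3 and IRF1 had log2 fold changes between -0.38 (STAT3) and -0.26 (CEBPD), and IRF7 and REL of -0.23 and -0.19. The values of IRF2 and STAT2 were -0.054 and -0.0052. Canonical transcripts of the factors named here reached 66.2% GC in CEBPB and 66.6% in IRF7, with NFKB1 at 50.1% and NFKB2 at 61.2%. Only REL (38.4%) and IRF2 (45.2%) lay below the median of 48.1% over the genes tested. Values with the length and GC trend removed are not given for this list, and the part of GC content in them was not tested.

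The genes whose pattern over the 4 libraries was most like that of C3 were genes of the extracellular matrix and ICAM1. Likeness was the root mean square difference of log2 CPM, each gene centred on its own mean, over 4 libraries and among 7774 genes of at least 20 CPM. TNC, the gene of tenascin-C, was nearest at 0.027 log2 units, with 240 and 181 CPM after 24 h against 458 and 304 CPM after 6 h. It was followed by COL4A2 (0.039) and COL4A1 (0.053), which encode basement membrane collagens, FN1 (0.056), the gene of fibronectin, and ICAM1 (0.067), a leukocyte adhesion receptor. The median over all other genes was 0.45. PTX3 lay at 0.12, NFKB1 at 0.13, SERPINA1 at 0.20, NFKB2 at 0.21 and CLU at 0.32, while CD46 lay at 0.63 and CD59 at 0.64. How many other genes lay as near was not counted. With only 4 libraries these distances describe the data and carry no test.

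**Figure D5:**
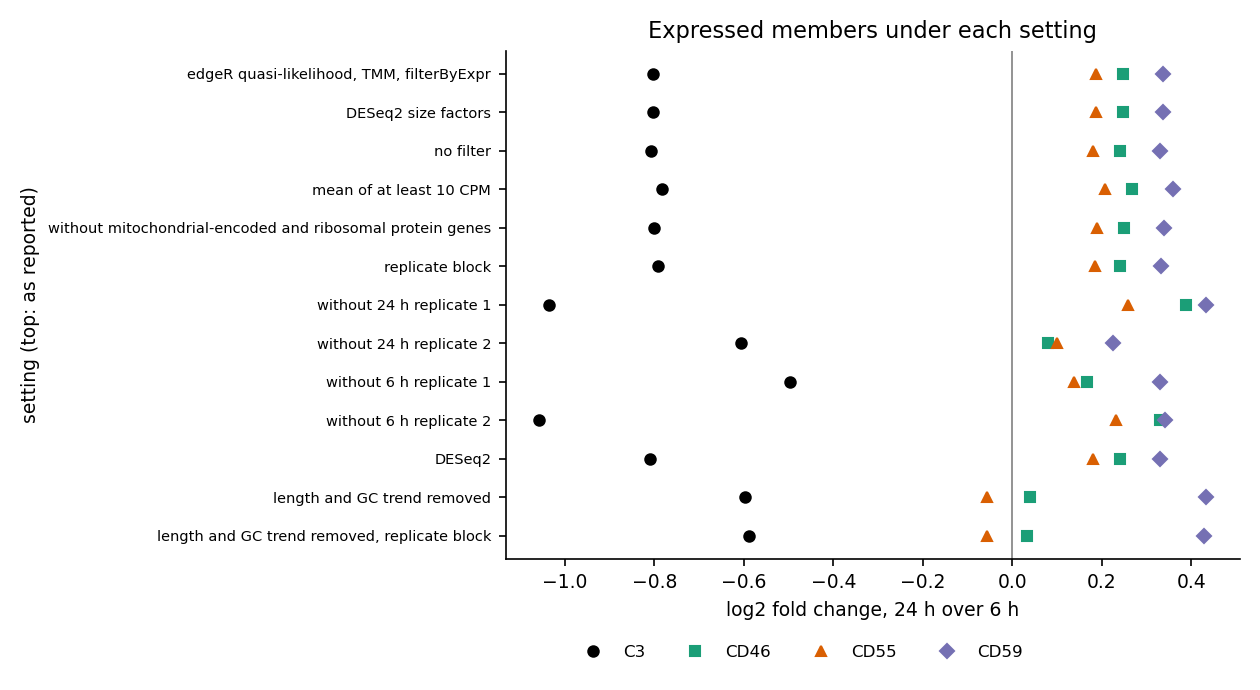
Log2 fold change of 24 h over 6 h (x axis) for C3, CD46, CD55 and CD59 under each setting of the analysis (rows, with the reported setting at the top). C3 stays between -1.06 and -0.50 and CD59 between 0.23 and 0.43, whereas CD46 comes down to 0.033 and CD55 to -0.056 once the length and GC trend is removed.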

How the data were processed

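The authors deposited a table of raw read counts for 20372 genes with hg19 coordinates, 1 column per library. The submitters' processing notes name STAR 2.3, hg19 and DESeq2, and the methods of the study a later STAR release. No source used here names the read counter, the annotation or the strand setting. The 8 members and all gene lists were chosen with earlier results of these data known.

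Counts were fitted in R 4.3.3 by edgeR 4.0.16 (quasi-likelihood test, TMM scaling). Its filterByExpr step left 12549 genes (5 of the 8 members). P-values were adjusted by Benjamini-Hochberg over these genes, with a threshold of 0.05. DESeq2 1.42.0 was the alternative tool. Alternatives also covered the normalization, the filter, the scaling genes, the replicate block and each library left out. Lengths and GC content are of the Ensembl canonical transcript in GENCODE 44, matched by identifier for 12392 of the genes tested. Their trend on fold changes was removed by regression on splines with 3 degrees of freedom each. Steps were tested on simulated counts. Replicates were distinct libraries, since their chi-square over genes of 10 or more counts, divided by its degrees of freedom, was 31.3 for the 24 h pair and 15.8 for the 6 h pair. Nothing states that they came from separate cultures, so p-values reflect the variation among these 4 libraries alone, possibly technical. Beside the members, the rule for named genes took genes of the complement, acute-phase and transcription factor lists that averaged 5 CPM or more, and the 5 genes nearest to C3. Some genes the rule took are counted in their lists but not reported here. Other genes below that level are named where a class or cell type is described.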

Additional observations from a re-analysis of the deposited data

How the results depend on the processing

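The length and GC trend and the ratio with C3 alone were chosen after seeing the data. In all 13 fits C3 was lower and CD59 higher at 24 h. Leaving out each library gave -1.06 to -0.50 for C3, 0.081 to 0.39 for CD46, 0.10 to 0.26 for CD55, 0.23 to 0.43 for CD59 and -0.42 to 0.38 for C1R. With the length and GC trend removed CD46 was at 0.039 (0.033 with the replicate block) and CD55 at -0.055 (-0.056 with the block). The log2 difference of components over membrane inhibitors, -1.06, was -1.41 to -0.72 without each library, -0.44 with the mean of the members' log2 CPM and -0.12 without C3, and -1.07 with C3 alone. The values -0.44 and -0.12 lean on C1R, C1S and CFB, which were close to the limit of detection. The count of 0 genes called by edgeR, with 3061 at an unadjusted p under 0.05, became 610 with DESeq2, 4565 with the replicate block (18.8% higher, 17.5% lower) and 1 to 3126 without each library. Dropping 24 h replicate 1 gave 3126 and dropping 6 h replicate 2 gave 887, and dropping either of the others gave 1. In the complement list with its 8 members the count of 0 became 2 of 9 with DESeq2 (1 higher, 1 lower). With the replicate block it became 9 of 20 (4 higher, 5 lower). Members, picked with this contrast known, gave the 1 lower call of DESeq2, and 2 higher and 1 lower with the block. Of all genes DESeq2 called 5.59% higher and 2.65% lower. In the complement list, dropping 24 h replicate 1 gave 5 calls and dropping 6 h replicate 2 gave 3. Of the named genes outside the members, 52 values across these settings passed the threshold that the reported fit did not, in the same direction. Another 211 values kept the direction and call of the reported fit, and 6 changed sign. The settings share libraries and each gene recurs over them, so these values are not independent. They include the 5 genes nearest to C3, which were picked by their likeness to it in these same libraries. The cause was not tested. Libraries with the same number deviated from their group means together (r = 0.43 over dependent genes), but with 2 pairs and no label on what they share, no pairing is assumed. Some values close to 0 turned sign when a library was left out: SAA1 ran from -0.35 to 0.14, with 0.055 for the loss of 24 h replicate 1, IRF2 from -0.12 to 0.00080 and STAT2 from -0.090 to 0.081, with 0.042 for the loss of 24 h replicate 1 and 0.015 with a mean of at least 10 CPM. Fits that leave out a library take the lone library to vary like the remaining pair. Depth limits CFB, CFI, C1R and C1S, at 0 to 19 counts.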
